A study of Mus musculus with 6 samples.

Results

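A set of 10 genes of the transforming growth factor (TGF)-β pathway was followed in colon tumors: the ligands Tgfb1, Tgfb2 and Tgfb3, the receptors Tgfbr1, Tgfbr2 and Tgfbr3, and the signal transducers Smad2, Smad3, Smad4 and Smad7. They were chosen by symbol, each was represented by 1 probe set, and all 10 passed the filter on signal, among 19506 probe sets tested of 35556 deposited. Tumors of 3 mice that carried the CDX2P-G19Cre transgene with Apc flox/flox and Tgfbr2 flox/flox alleles (double knockout, or double KO, tumors) were compared with tumors of 3 mice that carried the same transgene with Apc flox/flox alone (Apc knockout, or Apc KO, tumors). All mice were labelled C57BL/6J and were 3 weeks old, and both groups lack Apc in the recombined cells. Each array held the RNA of 1 mouse, taken by laser microdissection. Cre is driven by a fragment of the human CDX2 promoter in the colon epithelium, and it becomes active at random in single cells through a frameshift reversion. Stromal, immune and muscle cells of the tumors are therefore taken to keep an intact Tgfbr2 gene, as are epithelial cells without active Cre. Cell types were not genotyped separately, and the comparison concerns the whole dissected cancer tissue.

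TGF-β ligands are secreted in a latent form and bind, once released, to the type II receptor Tgfbr2, which then phosphorylates the type I receptor Tgfbr1. The activated type I receptor phosphorylates Smad2 and Smad3, which enter the nucleus with Smad4 and regulate genes. Smad7 is induced by the pathway and restrains it, and Tgfbr3 (betaglycan) presents ligands, Tgfb2 above all, to the signaling receptors. In the colon epithelium the pathway limits growth, and its receptor and Smad genes are often mutated in colorectal cancer. The signals are the authors' log2 values after robust multichip analysis (RMA), so that each step of 1 multiplies the signal by 2. In bulk tissue, fewer cells that express a gene and less RNA per cell cannot be told apart. Levels of different probe sets are not comparable, and only tumors are compared here.

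The arrays had median signals between 7.68 and 7.80. Double KO tumor 2 stood apart, with correlations of 0.956 to 0.968 to the other tumors over all probe sets, against 0.980 to 0.988 among the other 5. It was the lowest or the highest of the 6 tumors in 56.8% of the probe sets tested. Fold changes of the 10 genes are given with and without it, as are those of other named genes that move by over 1.5 times when it is left out. All 10 colon epithelium markers were measured above the filter. Their mean log2 signal was 11.97 to 12.28 in double KO tumors and 11.80 to 12.22 in Apc KO tumors. These means hide opposite shifts in double KO tumor 2, where 7 markers peaked and 2, Cdx2 and Krt18, had their lowest signal. Cdx2 was at 11.18, 8.24 and 10.93 in double KO tumors, against 10.89, 10.73 and 10.08 in Apc KO tumors. The log2 fold change was −0.45 for Cdx2 and −0.41 for Krt18, and 0.49 and −0.19 without double KO tumor 2. Both are named after their values were seen. The mean of 7 smooth muscle markers was 7.99 to 10.67 in double KO tumors, with the highest value in tumor 2, and 8.18 to 8.74 in Apc KO tumors.

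Of the 10 genes, Tgfbr2 and Smad3 had lower signals in every double KO tumor than in any Apc KO tumor, and the groups overlapped for the other 8. Across all probe sets tested the groups did not overlap in 12.2%, with the double KO tumors lower in 6.94% and higher in 5.25%. No gene of the 10 passed an adjusted p of 0.05 from limma (range 0.821 to 0.975), and neither did any of the 19506 probe sets (0% called). At an unadjusted p under 0.05, Tgfbr2 and Smad3 were lower, 2 of 10, and 0 were higher. The same threshold was met by 5.6% of all probe sets, 3.82% with lower signals and 1.78% with higher ones. The share of 2 in 10 rests on these 2 genes and was not tested against the backgrounds. The methods' t-test gave 1 gene of the 10, Tgfbr2, an unadjusted p under its threshold (5.12% of all probe sets) and 0 after Benjamini-Hochberg adjustment. The study's rule of a fold change of at least 2 with that p was met by 0 of the 10 and by 0.313% of all probe sets, so that a count of 0 says little about these genes. The median log2 fold change of the 9 genes other than Tgfbr2 was −0.22, with 6 lower and 3 higher, against a median of 0.010 over all probe sets, 47.7% of which were lower. Without double KO tumor 2 the median of the 9 genes was −0.078.

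Tgfbr2, the receptor gene deleted in the epithelium of the double KO group, is described apart from the other genes. Its log2 signal was 10.98, 10.35 and 10.47 in double KO tumors 1 to 3, against 11.35, 11.37 and 11.09 in Apc KO tumors 1 to 3. The groups did not overlap, and double KO tumor 1 lay close to Apc KO tumor 3. Relative to the mean of the Apc KO tumors, on the linear scale, the signal was 82.0% in double KO tumor 1, 52.9% in tumor 2 and 57.4% in tumor 3. The log2 fold change was −0.67 (95% confidence interval −1.14 to −0.20, unadjusted p = 0.0125 and adjusted p = 0.821 from limma), which is 1.59-fold lower. The two-sided exact permutation test gave p = 0.1, which with 3 tumors in each group is the lowest value it can take. Without double KO tumor 2 the log2 fold change was −0.54. In the floxed allele loxP sites flank exon 2, which Cre removes. The probes of the set were not placed relative to that exon, so the level is no check of the genotype, and a transcript without the exon may still bind probes elsewhere. By genotyping, the study reported that both floxed alleles were recombined in tumor tissue. By immunofluorescence it reported intact Tgfbr2 protein in Apc KO tumors and none in double KO tumors. The study does not say whether these were the tumors on the arrays.

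The promoters of Tgfbr2 and Smad3 are shown because these are the genes whose groups did not overlap. Each run is the 250 bases before the transcript start, read 5′ to 3′ on the gene's strand from RefSeq's promoters of GRCm38.p6, in which 5 of the 10 genes had an entry. Capitals mark the Smad box (CAGAC or, on the other strand, GTCTG) and the GC box bound by Sp1-type factors (GGGCGG or CCGCCC). The first lies at chr9:116175364-116175613 and the second at chr9:63757995-63758244, both on the minus strand.
Tgfbr2: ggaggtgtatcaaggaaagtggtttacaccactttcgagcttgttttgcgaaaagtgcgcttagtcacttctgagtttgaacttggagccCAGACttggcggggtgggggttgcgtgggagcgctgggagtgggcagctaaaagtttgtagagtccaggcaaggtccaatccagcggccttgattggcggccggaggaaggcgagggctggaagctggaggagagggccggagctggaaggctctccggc
Smad3: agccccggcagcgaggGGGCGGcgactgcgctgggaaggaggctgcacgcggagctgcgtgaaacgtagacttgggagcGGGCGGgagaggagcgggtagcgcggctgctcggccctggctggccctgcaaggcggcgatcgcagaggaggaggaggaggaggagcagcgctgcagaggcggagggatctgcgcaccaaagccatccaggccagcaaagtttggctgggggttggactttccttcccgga
The Tgfbr2 window held 1 Smad box, which starts 160 bases before the transcript start, and no GC box. The Smad3 window held 2 GC boxes, at 234 and 171 bases before the start, and no Smad box. Among 32851 promoter windows of the same length, 42.2% held a Smad box and 32.7% a GC box. The letters TATAAA (or TTTATA on the other strand, 12.4% of windows) occurred in neither. The other windows were those of Tgfb1, with 5 GC boxes and no Smad box, of Tgfb2, with 2 Smad boxes, 1 TATAAA at 31 bases before the start and no GC box, and of 2 transcript starts of Tgfbr1. The first of these held 2 GC boxes and no Smad box, and the other held 1 Smad box and no GC box.

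**Figure D1:**
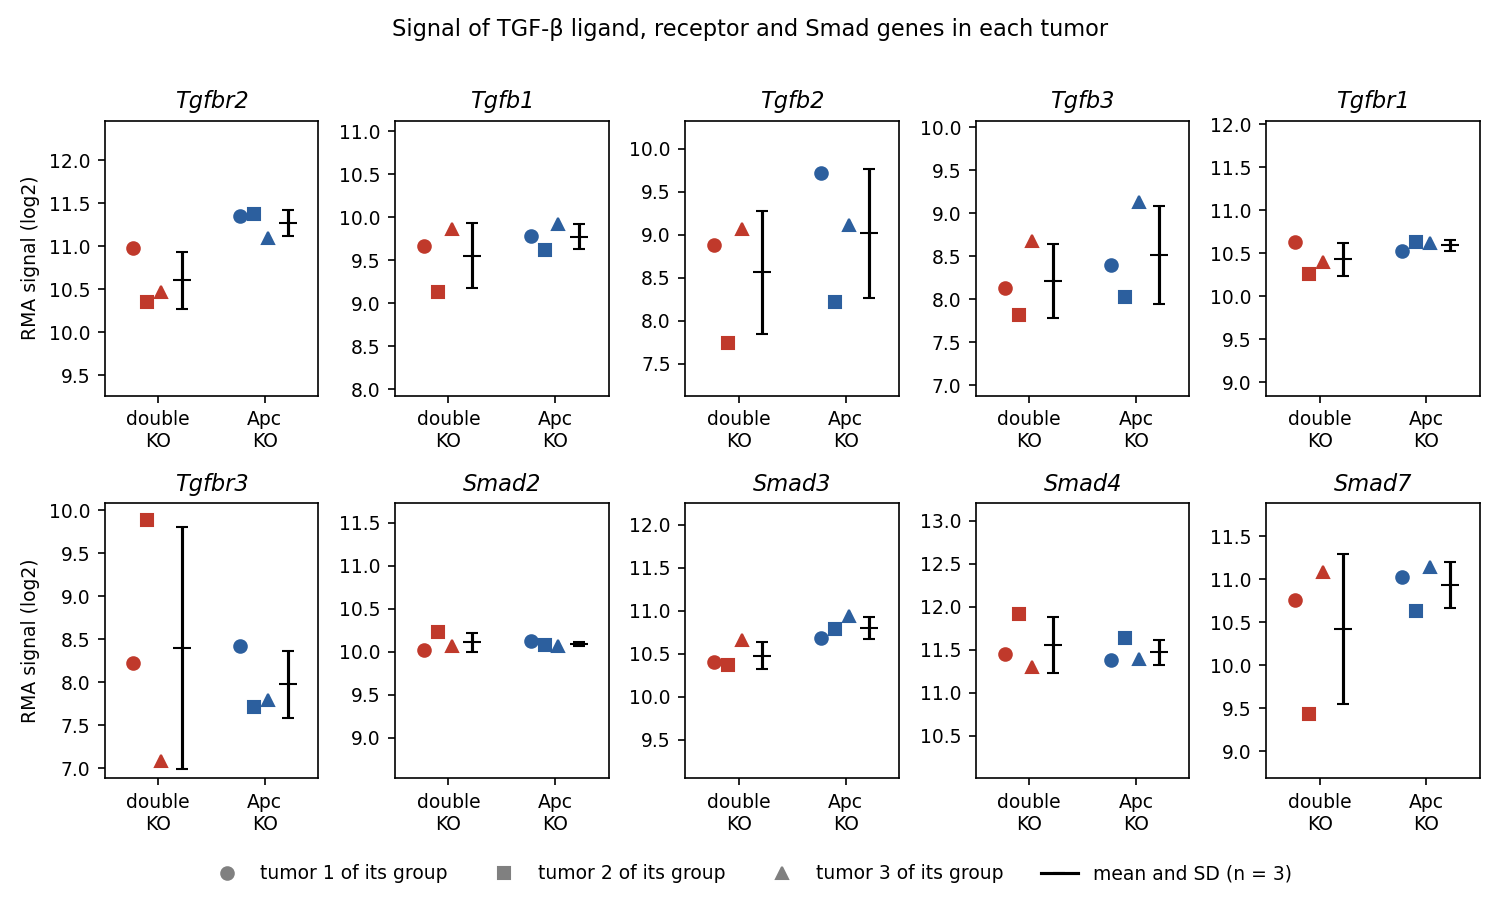
RMA signal on the log2 scale (vertical axes, all spanning the same number of log2 units) of the 10 genes, 1 point per tumor, in double KO tumors (red) and Apc KO tumors (blue), with a mean ± SD drawn next to each group (n = 3). The points do not overlap for Tgfbr2 and Smad3, and the square of double KO tumor 2 lies at an end of the range in every panel.

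The 3 ligand genes had lower mean signals in double KO tumors, each with overlapping groups and with double KO tumor 2 as the lowest of the 6 tumors. Tgfb1, a ligand made by many kinds of cell, was at 9.67, 9.13 and 9.86 in double KO tumors 1 to 3, against 9.78, 9.62 and 9.92 in Apc KO tumors 1 to 3. Apart from double KO tumor 2, all tumors lay within the range of the Apc KO group. The log2 fold change was −0.22 (95% confidence interval −0.73 to 0.29) with all tumors and −0.0084 without that tumor.
Tgfb2, the ligand that depends most on betaglycan, varied widely in both groups, at 8.88, 7.74 and 9.06 in double KO tumors and 9.71, 8.22 and 9.11 in Apc KO tumors. Its Apc KO range of 1.49 was wider than its double KO range of 1.32. The groups differed by −0.45 (95% confidence interval −1.65 to 0.74), and −0.045 without double KO tumor 2.
Tgfb3 was at 8.13, 7.82 and 8.68 in double KO tumors and 8.40, 8.02 and 9.14 in Apc KO tumors. In both groups tumor 2 was the lowest and tumor 3 the highest. The difference was −0.31 (95% confidence interval −1.14 to 0.53), −0.11 without double KO tumor 2 and 0.0034 without Apc KO tumor 3, so its direction rests on that Apc KO tumor. The adjusted p of the 3 ligands was 0.838 to 0.857 from limma.

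Tgfbr1 was lowest and Tgfbr3 highest in double KO tumor 2, and both had overlapping groups. Tgfbr1, the type I receptor kinase (ALK5), was at 10.63, 10.26 and 10.39 in double KO tumors and 10.52, 10.63 and 10.62 in Apc KO tumors. Double KO tumors 2 and 3 lay below all Apc KO tumors, and double KO tumor 1 was level with Apc KO tumor 2. The Apc KO tumors spanned only 0.11, and the log2 fold change was −0.16 (95% confidence interval −0.47 to 0.14), −0.078 without double KO tumor 2.
Tgfbr3 spread most widely of the 10 genes in the double KO group. It was at 8.22, 9.88 and 7.09 in double KO tumors and 8.43, 7.71 and 7.79 in Apc KO tumors. The double KO group held both the highest and the lowest tumor. Its log2 fold change was 0.42 (95% confidence interval −1.24 to 2.08) with all tumors and −0.32 without double KO tumor 2, so the direction rests on that tumor. The 6 tumors had the same order for Tgfbr3 as for the mean of the 7 smooth muscle markers, which was 8.69, 10.67 and 7.99 in double KO tumors and 8.74, 8.18 and 8.68 in Apc KO tumors. The part of smooth muscle in the Tgfbr3 signal was not tested. The mean of 9 fibroblast markers was 10.11, 10.28 and 9.21 in double KO tumors and 9.86, 9.45 and 9.97 in Apc KO tumors, highest and lowest in the same 2 tumors. The adjusted p from limma was 0.831 for Tgfbr1 and 0.903 for Tgfbr3.

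Among the Smads, Smad3 was lower without overlap, while the groups overlapped for Smad2, Smad4 and Smad7. Smad3, a receptor-activated Smad that binds DNA, was at 10.41, 10.37 and 10.66 in double KO tumors 1 to 3, against 10.68, 10.78 and 10.94 in Apc KO tumors 1 to 3. Double KO tumor 3 lay just below Apc KO tumor 1, so the groups are separate by a narrow margin. The log2 fold change was −0.32 (95% confidence interval −0.63 to −0.011, unadjusted p = 0.0446 and adjusted p = 0.821 from limma), or 80.0% of the Apc KO level, and the two-sided exact permutation test gave p = 0.1. It was −0.27 without double KO tumor 2, with an unadjusted p of 0.107 from limma, and only without double KO tumor 3 did that p stay under 0.05 when 1 tumor was left out (0.0243).
Smad2, the other receptor-activated Smad, was at 10.02, 10.23 and 10.07 in double KO tumors and 10.12, 10.08 and 10.07 in Apc KO tumors. It had the narrowest spread of the 10 genes in both groups. The log2 fold change was 0.019 (95% confidence interval −0.23 to 0.26), the narrowest interval of the 10 genes. Without double KO tumor 2 it was −0.044.
Smad4, the common partner of the receptor-activated Smads, was at 11.44, 11.92 and 11.29 in double KO tumors and 11.38, 11.64 and 11.39 in Apc KO tumors. Tumor 2 was the highest of each group. The groups differed by 0.083 (95% confidence interval −0.37 to 0.54) and −0.10 without double KO tumor 2.
Smad7, the inhibitory Smad, was at 10.75, 9.43 and 11.08 in double KO tumors and 11.03, 10.63 and 11.14 in Apc KO tumors. Double KO tumor 2 lay far below the Apc KO tumors, while double KO tumors 1 and 3 differed from the Apc KO mean by −0.18 and 0.15. The log2 fold change of −0.51 (95% confidence interval −1.56 to 0.54) became −0.015 without that tumor. The adjusted p from limma was 0.975 for Smad2, 0.930 for Smad4 and 0.833 for Smad7.

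**Figure D2:**
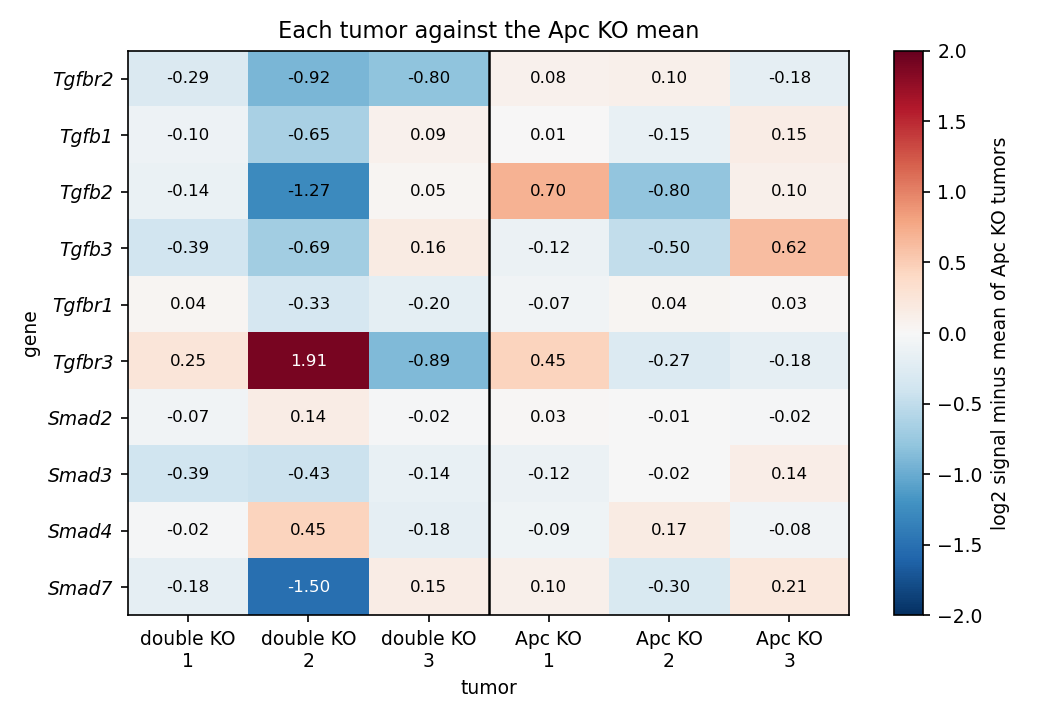
Log2 signal of each gene (rows) in each tumor (columns) minus the mean of the 3 Apc KO tumors, with the value printed in each cell. The column of double KO tumor 2 holds the largest departures, upward for Tgfbr3 (1.91) and downward for Smad7.

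For 7 genes the lowest signal was that of double KO tumor 2 (Tgfb1, Tgfb2, Tgfb3, Tgfbr1, Tgfbr2, Smad3 and Smad7), and for the other 3 (Tgfbr3, Smad2 and Smad4) it had the highest. Among all probe sets tested it was the lowest in 28.3% and the highest in 28.5%. Without it, the log2 fold changes of all 10 genes were below 0, as were those of 49.5% of all probe sets, but 4 of the 10 lay within 0.05 of 0 (Tgfb1, Tgfb2, Smad2 and Smad7). Tgfbr3, Smad2 and Smad4 changed direction without it. The spread within the double KO group was wider than within the Apc KO group for 8 of the 10 genes, all except Tgfb2 and Tgfb3, and for 56.2% of all probe sets.

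**Figure D3:**
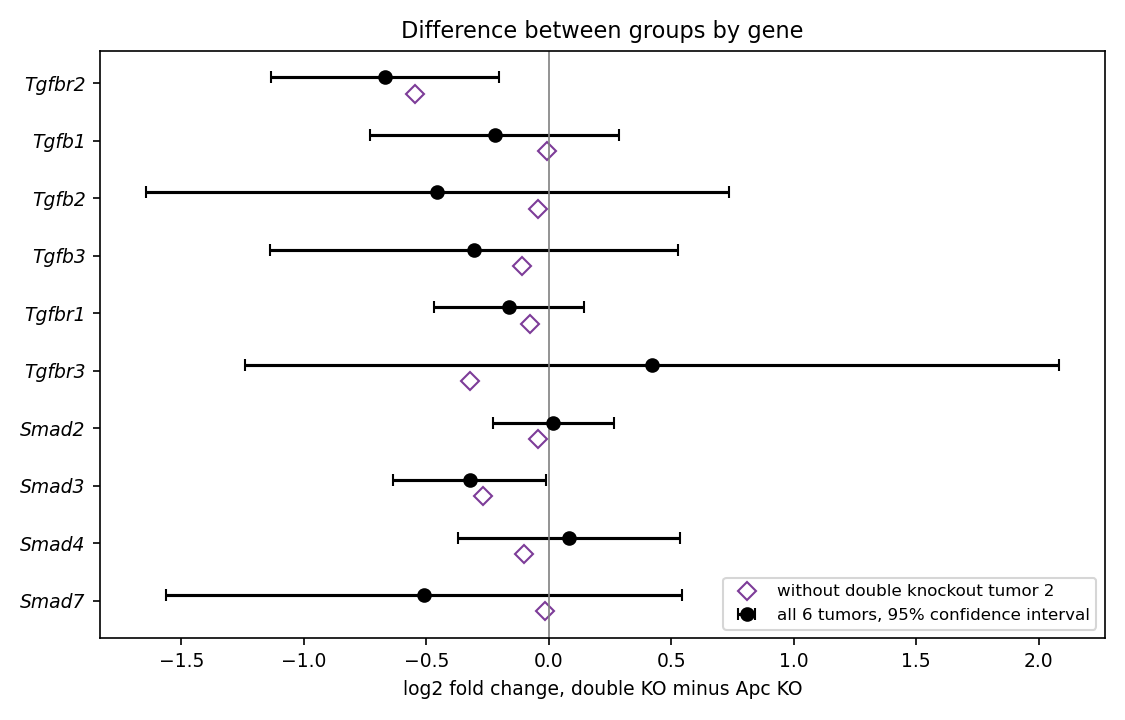
Log2 fold change of each gene, double KO minus Apc KO (horizontal axis), with all 6 tumors (filled circles, bars for the 95% confidence interval of limma) and without double KO tumor 2 (open diamonds). The interval leaves out 0 for Tgfbr2 and Smad3, and all 10 diamonds lie below 0.

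Other genes of the pathway were described in lists, whose counts stand beside 3.82% lower and 1.78% higher at an unadjusted p under 0.05, and 47.7% below 0, over all probe sets. None of the counts was tested against these shares. Besides genes shared with other lists, the genes named from each list are the 4 with the smallest p from limma. That rule favors genes whose groups do not overlap. Of 8 genes of ligand latency and activation, 2 were lower and 0 higher at an unadjusted p under 0.05, with 6 of 8 below 0 and a median of −0.33. Thbs1, thrombospondin 1, which can release TGF-β from its latent complex, was at 11.69, 11.39 and 11.83 in double KO tumors, against 12.28, 12.26 and 12.64 in Apc KO tumors. All double KO tumors were lower (−0.76, standard error 0.17). Ltbp2 is a matrix protein of the family named latent TGF-β binding proteins. Its signal was 7.62, 7.41 and 7.72 in double KO tumors, against 8.23, 7.80 and 8.13 in Apc KO tumors. The groups again did not overlap (−0.47, standard error 0.15). Thbs1 stayed under an unadjusted p of 0.05 with any 1 tumor left out, and Ltbp2 did not.
A pair of relatives of Ltbp2 that bind latent ligand had opposite signs. Ltbp3 was at 9.31, 8.89 and 9.58 in double KO tumors and 9.84, 9.48 and 10.39 in Apc KO tumors (−0.64, standard error 0.28), with double KO tumor 3 above Apc KO tumor 2. Ltbp4 was at 9.82, 10.21 and 9.60 in double KO tumors and 9.46, 9.38 and 9.55 in Apc KO tumors (0.41, standard error 0.17), without overlap. The difference of Ltbp4 was 0.24 without double KO tumor 2, and without Apc KO tumor 3 that of Ltbp3 was −0.40. The adjusted p from limma was 0.821 for each of these 4 genes.

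Of 20 Smad regulators and partners, 1 was lower and 0 higher at an unadjusted p under 0.05, with a median of −0.072 and a share near the 3.82% of all probe sets. Smurf1, a ubiquitin ligase recruited by Smad7 to the receptors, was at 9.76, 9.67 and 9.82 in double KO tumors and 9.91, 10.24 and 10.03 in Apc KO tumors (−0.31, standard error 0.12), without overlap. Its unadjusted p of 0.0430 from limma was over 0.05 with median centring, with trend and robust eBayes, with the replicate block and without any 1 tumor other than Apc KO tumor 1. Zfyve9 (SARA), which anchors Smad2 and Smad3 at the receptor, had no overlap either, at 9.34, 8.82 and 9.31 in double KO tumors and 9.43, 9.56 and 9.43 in Apc KO tumors (−0.32, standard error 0.16). The difference was −0.27 (standard error 0.20) for Pmepa1, a target of the pathway that blocks Smad phosphorylation, and 0.20 (standard error 0.13) for Usp15, a deubiquitinase of the receptor and Smads. Leaving out double KO tumor 2 gave −0.15 for Zfyve9, −0.061 for Pmepa1 and 0.14 for Usp15.
Of the 4 Smads of the bone morphogenetic protein (BMP) branch, 1 was lower at that threshold, with a median of −0.19. Smad1 was at 9.70, 9.78 and 9.70 in double KO tumors and 9.90, 10.04 and 10.02 in Apc KO tumors (−0.26, standard error 0.10), without overlap. Its unadjusted p of 0.0311 from limma was over 0.05 with median centring, with the replicate block and in 4 of the 6 fits that left out 1 tumor. Smad5, which like Smad1 carries BMP signals, was at 10.10, 10.20 and 10.16 in double KO tumors and 10.28, 10.23 and 10.51 in Apc KO tumors (−0.18, standard error 0.11), also without overlap, and its difference was −0.099 without Apc KO tumor 3. The inhibitory Smad6 (−0.20, standard error 0.36, and 0.10 without double KO tumor 2) and Smad9 (0.05, standard error 0.19) had overlapping groups.
Of 7 further receptors and integrins, 0 reached an unadjusted p under 0.05 and the median was −0.00068. The largest difference relative to its error was in Itgav, the αv integrin subunit that takes part in release of latent TGF-β. It was at 10.94, 10.73 and 11.13 in double KO tumors and 11.15, 11.15 and 11.28 in Apc KO tumors (−0.26, standard error 0.13), without overlap. Differences were −0.36 (standard error 0.53) for Bambi, a pseudoreceptor, −0.13 (standard error 0.20) for endoglin (Eng) and 0.15 (standard error 0.12) for Cd109, a co-receptor that holds signaling down. Without double KO tumor 2 the difference was −0.16 for Itgav, 0.14 for Bambi, −0.021 for Eng and 0.078 for Cd109.

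Of 21 genes known to be induced by TGF-β, 19 had a probe set of their own and all 19 passed the filter. Of these 1 was lower (Ltbp2, also counted above) and 0 were higher at an unadjusted p under 0.05, with 13 below 0 and a median of −0.12, against 3.82% lower and 47.7% below 0 over all probe sets. Connective tissue growth factor (Ccn2) was at 9.89, 10.39 and 9.60 in double KO tumors and 10.11, 10.11 and 11.14 in Apc KO tumors (−0.49, standard error 0.34), with Apc KO tumor 3 above the rest. Fibronectin (Fn1) differed by −0.46 (standard error 0.22) and Timp1, an inhibitor of metalloproteinases, by −0.54 (standard error 0.30). Timp1 was at −0.22 without double KO tumor 2, and Ccn2 at −0.15 without Apc KO tumor 3. The induced list shares Acta2 and Tagln with the smooth muscle markers, and collagen genes with the fibroblast markers. It also shares genes with the pathway lists above. Acta2 differed by 0.59 (0.070 without double KO tumor 2) and Tagln by 0.42 (−0.32 without that tumor). Of 5 genes known to be repressed by TGF-β in epithelium, 0 reached the unadjusted threshold, with 2 above 0 and a median of −0.20. Id1, an inhibitor of differentiation factors, was at 11.63, 12.05 and 11.72 in double KO tumors and 11.52, 11.03 and 11.59 in Apc KO tumors (0.42, standard error 0.19), without overlap. Myc was at 11.75, 10.73 and 12.26 in double KO tumors and 11.76, 11.83 and 11.76 in Apc KO tumors, so that double KO tumors lay on both sides (−0.20, standard error 0.37). Id2 (−0.32, standard error 0.36) and Cdc25a (0.17, standard error 0.21) had overlapping groups. Without double KO tumor 2 the difference was 0.22 for Myc and 0.032 for Id2, and without Apc KO tumor 2 it was 0.25 for Id1. Over the 6 lists 0 genes passed an adjusted p of 0.05. Genes without overlap were 2 lower and 1 higher of 8 for latency, and 2 lower each of 20 Smad regulators and 4 BMP Smads. They were 1 lower of 7 further receptors and integrins, 1 lower of 19 induced genes and 1 higher of 5 repressed genes. Over all probe sets the shares were 6.94% lower and 5.25% higher, and these counts were not tested.

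**Figure D4:**
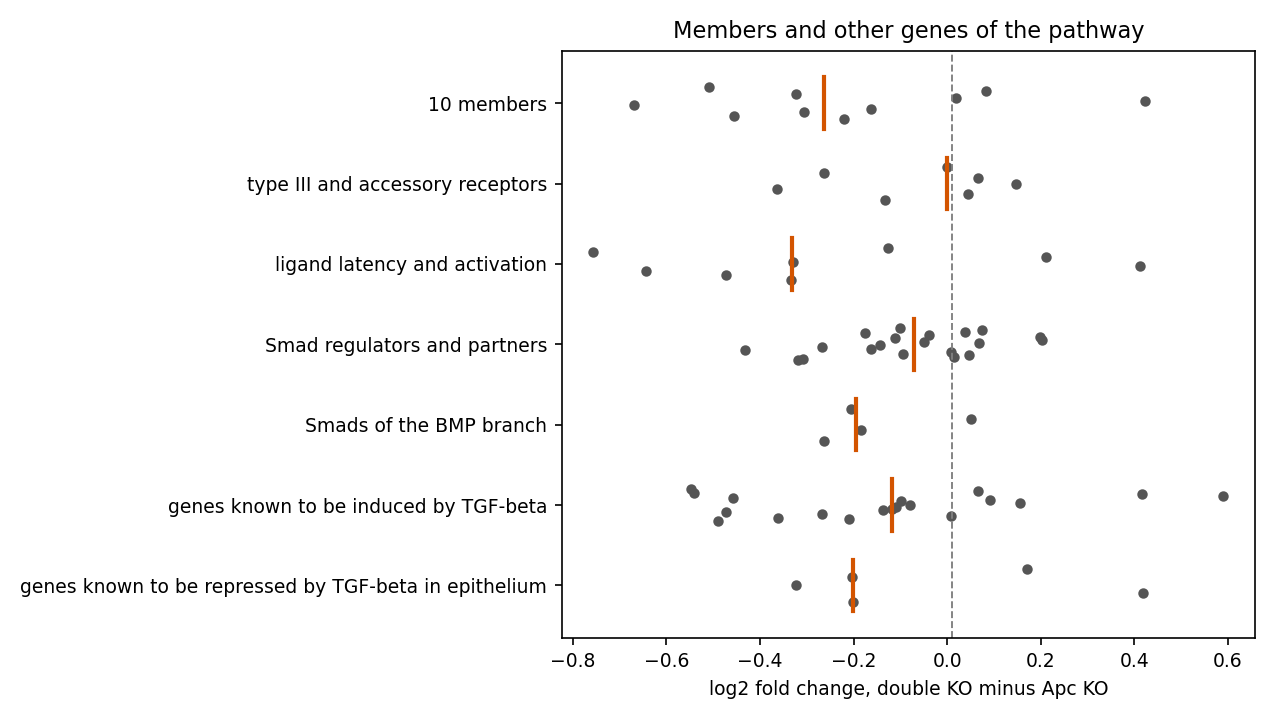
Log2 fold change, double KO minus Apc KO (horizontal axis), of each tested gene of the 10 members and of the 6 pathway lists (rows), with the median of each row (orange bar) and the median of all 19506 probe sets (dashed line, 0.010). The medians lie between −0.33 for ligand latency and activation and −0.00068 for the row labelled type III and accessory receptors. That row holds the 7 further receptors and integrins of the text and not Tgfbr3.

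Markers of other cell types also differed among the tumors. The mean log2 signal of 8 neutrophil markers was 7.32, 8.77 and 7.79 in double KO tumors 1 to 3 and 9.04, 8.95 and 8.49 in Apc KO tumors 1 to 3. Double KO tumors 1 and 3 lay below all Apc KO tumors, and the median difference of −0.84 was −1.48 without double KO tumor 2. At an unadjusted p under 0.05, 2 of these 8 markers were lower. The mean of the 3 tested B and plasma cell markers of 6 was 8.10, 8.01 and 6.18 in double KO tumors 1 to 3 and 6.10, 5.94 and 6.40 in Apc KO tumors 1 to 3. Of these 3, Jchain and Igha were higher at that threshold, as was Lum among the 9 fibroblast markers. These genes are named after their values were seen. Jchain lay under the filter level of 5.88 in all Apc KO tumors and in double KO tumor 3. Its mean over the tumors passed the filter only through double KO tumors 1 and 2. Cd79a and Ms4a1 of the same list did not pass. The filter thus favored a higher call for Jchain, and a higher mean of the tested B and plasma cell markers in double KO tumors 1 and 2. Of the fibroblast markers, 4 were above 0 and 5 below, with a median of −0.099. The other marker lists had 0 genes at that threshold, and over all probe sets 3.82% were lower and 1.78% higher. The mean of 8 macrophage markers was 9.11 to 9.80 in double KO tumors and 9.29 to 9.74 in Apc KO tumors, that of 7 endothelial markers 8.49 to 8.71 in double KO and 8.43 to 8.90 in Apc KO tumors, and that of 5 tested T and NK cell markers 6.82 to 7.31 in double KO and 6.73 to 7.11 in Apc KO tumors. The group means of the neutrophil list (7.96 against 8.82) and of Tgfbr2 (10.60 against 11.27) were both lower in double KO tumors. Apc KO tumor 3 was the lowest of its group for both. Double KO tumor 1 had the highest Tgfbr2 signal of its group and the lowest neutrophil mean of the 6 tumors. The part of these cells in the Tgfbr2 and Smad3 signals was not tested.

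**Figure D5:**
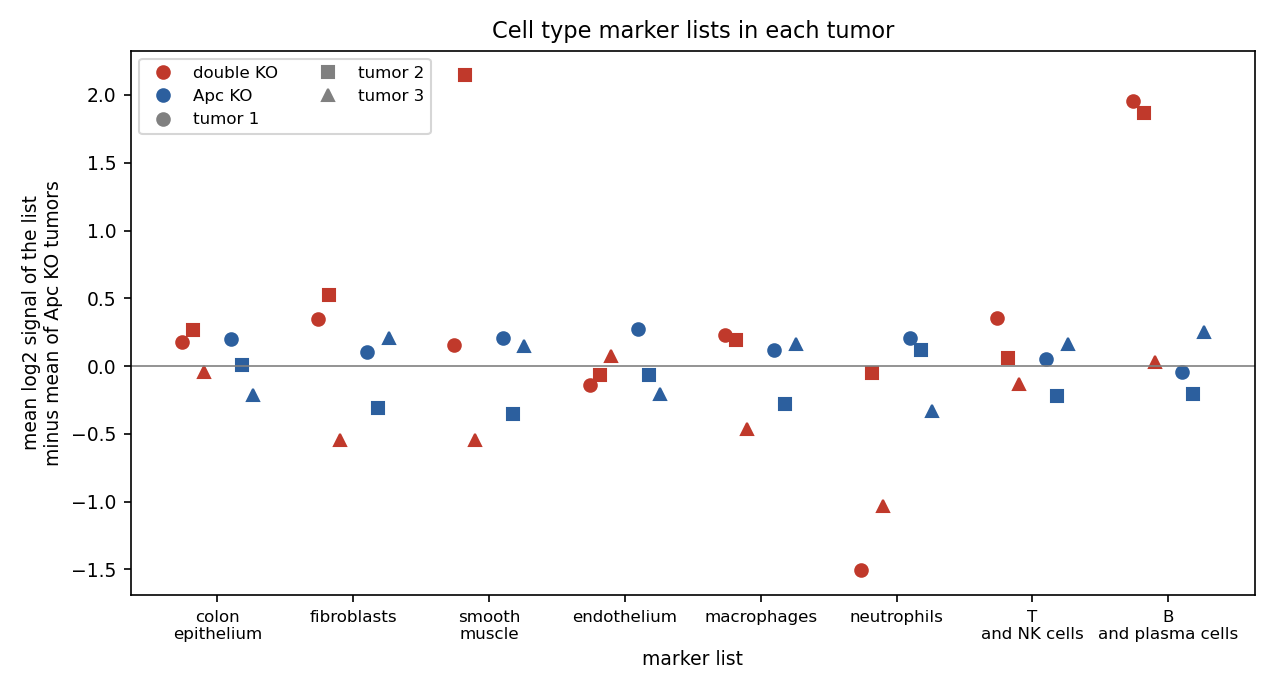
Mean log2 signal of the tested genes of each cell type marker list in each tumor, minus the mean of the 3 Apc KO tumors (vertical axis), in double KO tumors (red) and Apc KO tumors (blue), with a symbol per tumor number. Double KO tumor 2 is above all other tumors for smooth muscle (10.67 against at most 8.74 in the Apc KO tumors).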

How the data were processed

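RNA of 3 double knockout and 3 Apc knockout colon tumors was hybridized by the authors to Affymetrix Mouse Gene 1.0 ST arrays, with 1 array per mouse. Signals were processed by the authors with RMA in GeneSpring GX and deposited as log2 values. The version of RMA is not given in the sources used here. RMA equalizes the distribution of signals across arrays, so a shift of all genes cannot be seen. Of 35556 probe sets, 21789 have 1 symbol in the platform annotation, 1621 several and 12146 none. By gene identifier, 21698 of the first were found in the RefSeq table.

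The 19506 sets that had a symbol and whose mean reached 5.88 on the log2 scale (percentile 20) were fitted with limma 3.58.1 (R 4.3.3). Differences are double KO minus Apc KO with no covariate, and two-sided p-values were adjusted by Benjamini-Hochberg at a threshold of 0.05. Exact permutation tests used all 20 assignments. The number of arrays limits the precision. The members, the lists and the rule for named genes (all members, and the 4 genes of each list with the smallest p) were chosen with earlier results of these data known. Alternatives were the methods' t-test, other filters and normalizations, a block for the replicate number, weights for the arrays, and leaving out each tumor. The fit was tested on simulated data. Some genes of the lists are not reported here.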

Additional observations from a re-analysis of the deposited data

How the results depend on the processing

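No gene of the 10 passed the adjusted threshold under any alternative except array weights, whose estimate did not converge: there 1 did (Smad3, −0.28, adjusted p = 0.0498 from limma), as did 1155 probe sets with higher and 1589 with lower signals, against 0 with equal weights. Thbs1 (−0.61), Ltbp2 (−0.58), Ltbp3 (−0.53), Ltbp4 (0.35), Fn1 (−0.66) and Smad1 (−0.22) passed with these weights too. Tgfbr2 kept its direction under all 16 alternatives (−0.86 to −0.41), and Smad3 did so too (−0.41 to −0.25). Most of the alternatives could not have turned it. The other filters, set averaging, the t-test, trend and robust eBayes and the block leave the fold changes of these genes unchanged. Leaving out or weighting tumors cannot reverse groups that do not overlap. Only median centring and quantile normalization could have done so. With 1 tumor left out, Tgfbr2 was at −0.86 to −0.54 and the median of the 9 other genes at −0.38 to −0.078. The count at an unadjusted p under 0.05 was 3 with array weights, 1 in place of 2 with median centring and with the methods' t-test, and 1 with any tumor left out other than double KO tumor 3 (2). Where the count was 1, that gene was Tgfbr2 and Smad3 missed the threshold. Of the 19506 probe sets, 6578 met the same threshold with array weights, against 1092 in the main fit, so the count of 3 is no gain. The number was 1070 with median centring, 998 with the methods' t-test and 677 to 1716 with 1 tumor left out.

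Directions turned with array weights for Smad2 (−0.082), Tgfbr1 (0.065), Tgfbr3 (−0.15), Cd109 (−0.011), Myc (0.00094) and the median of the genes repressed by TGF-β (0.00094). The median of the further receptors was 0.033 with median centring and 0.038 with quantile normalization. With 1 tumor left out, the range crossed 0 for Tgfb3 (−0.55 to 0.0034), Tgfbr3 (−0.32 to 1.08), Smad2 (−0.044 to 0.062), Smad4 (−0.10 to 0.21), Smad6 (−0.49 to 0.10), Smad9 (−0.14 to 0.22), Bambi (−0.78 to 0.14), Cdc25a (−0.020 to 0.37), Id2 (−0.57 to 0.032), Myc (−0.54 to 0.22), and the medians of the repressed genes (−0.52 to 0.20) and of the further receptors (−0.086 to 0.028). The cause was not tested.

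The replicate block gave the Tgfbr2 fold change of −0.67 and the 0 calls of the unblocked fit. Each replicate number occurs once per group, so the block cannot change a fold change, only its standard error and p-value. The labels do not say that a shared number pairs the mice, and the deviations of same-numbered tumors from their group means correlated at −0.20, −0.06 and 0.09. The 10 genes have 1 probe set each, so averaging sets changed no fold change of theirs.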

Other observations

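Over the 6 tumors, the named probe sets whose signal was most like that of Tgfbr2 were Ephx3 (Pearson r = 0.983), Cacna2d1 (0.981), Iqsec1 (0.979), Il17ra (0.977) and Nfib (0.977), the highest of 18350 compared, 34 of which had r over 0.95. These are descriptions over 6 points that share the group difference, and no test was made. With 18350 sets compared over only 6 points, some unrelated genes can reach such values too. Of the other 9 genes, Tgfbr1 was the most like it (r = 0.840) and Smad2 the least (−0.46).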
